A study of Mus musculus with 2 samples.

Results

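The cells described here are cone photoreceptors in which most visual pigment RNA is that of the short-wavelength opsin gene Opn1sw, called S-dominated cones below. They were chosen by a rule on 7 cone genes, Arr3, Opn1sw, Opn1mw, Gnat2, Pde6h, Pde6c and Gngt2. A cell had to hold at least 10 unique molecular identifiers (UMIs, each counting 1 captured RNA molecule) of these genes, at least 1% of its UMIs from them, and at least 5 UMIs of the opsins Opn1sw and Opn1mw. Its M opsin share, the part of those opsin UMIs from the middle-wavelength opsin gene Opn1mw, had to be under 20%. The rule gave 519 S-dominated cones among 21193 kept cells of the mouse retina, with 509 other cones at a share of 20% or more. Retinas of both eyes of C57BLKS mice at 13 weeks of age were profiled by 10x Genomics 3' v3.1 single-cell RNA sequencing. One library came from 2 mice of the genotype C57BLKS-Leprwt/wt, the wild type, also described as m/m. The other came from 2 mice of the genotype C57BLKS-Leprdb/db (db/db), which lack the signalling form of the leptin receptor in every tissue and serve as a type 2 diabetes model. Neither received a treatment. The cells of a library were not assigned to its mice, so genotype and library cannot be told apart. The libraries held 35642274 UMIs in 10308 barcodes (wild type) and 33742189 UMIs in 11083 barcodes (db/db).

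As background, a vertebrate cone detects light with an opsin in its outer segment that acts through the transducin Gnat2 and the phosphodiesterase Pde6c and Pde6h to close cyclic nucleotide-gated channels. Many mouse cones make both opsins at once, with S opsin strongest in ventral retina and M opsin strongest in dorsal retina, and a minority makes S opsin alone. Thrb, a thyroid hormone receptor gene, is required for M opsin and holds S opsin down, while Vax2 is a homeobox factor of ventral retina and Nr2f2 (COUP-TFII) a nuclear receptor of dorsal retina.

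High levels of the cone markers in the rule follow from it and are given as a description. In the wild-type library the 299 S-dominated cones held Opn1sw at 12504 UMIs per 1000000 UMIs (CPM) and Opn1mw at 713 CPM. In the db/db library the 220 S-dominated cones held them at 12376 and 735 CPM. Arr3 (cone arrestin), Gnat2, Pde6h and Pde6c were detected in 92.3% to 98.6% of S-dominated cones. The cone channel subunits Cnga3 and Cngb3, which the rule did not use, stood at 47.8 and 45.8 CPM and at 358 and 352 CPM. Over all kept cells Cnga3 stood at 6.67 and 5.60 CPM and Cngb3 at 45.9 and 41.7 CPM, and in the other cones at 67.9 and 61.8 CPM and at 355 and 420 CPM. UMIs of cone genes were also found in rods, as RNA free in the droplets can give. Rods were here cells with rod markers at 3% of UMIs or more and Arr3, Gnat2, Pde6h, Pde6c and Gngt2 together under 0.5%. Among 7389 and 8466 such rods Opn1sw stood at 213 and 151 CPM and Opn1mw at 63.8 and 37.6 CPM. Opn1mw was found in 61.9% and 60.9% of S-dominated cones, against 8.49% and 6.93% of those rods, at median depths of 4950 and 4958.5 UMIs in cones and 2350 and 2053 in rods. Rod markers held a median of 1.94% and 1.60% of the UMIs of an S-dominated cone, and 1.55% and 1.30% of those of another cone. All 9 rod markers were detected in both classes. Of the 8 microglia or macrophage markers 3 and 1 were detected in S-dominated cones, with C1qa and Csf1r at 0 in both libraries. Bipolar markers summed to 137 and 116 CPM, below the 238 and 146 CPM of the other cones, and Muller glia markers to 399 and 332 CPM. The db mutation alters splicing of Lepr and leaves most of its transcript, so counts of its 3' end do not check the genotype labels. The libraries shared 26 barcodes, of which 0 were cones.

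The regulatory sequence just upstream of the opsins and of Ccdc136, the gene next to Opn1sw, is shown because these genes define the class or went with it most closely. The stretches are 250 bases ending at the gene start, 5′ to 3′ on the gene's strand, from RefSeq on GRCm38.p6. Capitals mark AGGTCA, a nuclear receptor half-site (TGACCT on the other strand), and TAATCT, a form of the core bound by Crx and Otx2. The stretch of Opn1sw lies at chr6:29380514-29380763 (minus strand), that of Opn1mw at chrX:74127216-74127465 (plus strand) and that of Ccdc136 at chr6:29396325-29396574 (plus strand).
Opn1sw: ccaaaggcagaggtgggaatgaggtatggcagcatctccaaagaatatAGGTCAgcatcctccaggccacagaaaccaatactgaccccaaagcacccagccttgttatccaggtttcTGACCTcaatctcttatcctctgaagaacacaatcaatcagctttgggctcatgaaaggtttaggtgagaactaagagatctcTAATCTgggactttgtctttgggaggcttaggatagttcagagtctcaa
Opn1mw: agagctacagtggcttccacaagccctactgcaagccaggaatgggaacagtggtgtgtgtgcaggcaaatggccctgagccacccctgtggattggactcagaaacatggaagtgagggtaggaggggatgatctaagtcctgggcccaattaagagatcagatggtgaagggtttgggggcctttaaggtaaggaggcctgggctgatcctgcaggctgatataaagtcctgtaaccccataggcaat
Ccdc136: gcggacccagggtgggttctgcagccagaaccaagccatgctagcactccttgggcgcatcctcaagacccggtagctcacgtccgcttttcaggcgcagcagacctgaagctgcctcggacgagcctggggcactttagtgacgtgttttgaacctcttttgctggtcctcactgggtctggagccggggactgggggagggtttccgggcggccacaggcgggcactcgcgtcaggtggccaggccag
Both strands were searched for AGGTCA, for the Crx-type cores TAATCT and also TAATCC, and for the homeodomain core TAATTA. The hits shown do not overlap. The Opn1sw stretch held AGGTCA at 202 and, on the opposite strand, at 132 bases before the start, and TAATCT at 49 bases before it. Of 32851 promoters of the same length 14.0% held AGGTCA, 1.36% held it at least 2 times, and 7.31% held TAATCT. The stretches of Opn1mw and Ccdc136 held none of these letters, which says nothing of the factors.

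Most cones lay near one end or the other of the M opsin share. In the wild-type library 114 of 554 cones had no Opn1mw UMI, 122 had a share above 0 and under 10%, and 63 from 10% to under 20%. A further 28 lay from 20% to under 30% and 37 from 30% to under 80%, while 50 lay from 80% to under 100% and 140 had M opsin alone. The db/db counts in the same order were 86, 83, 51, 35, 40, 36 and 143 of 474. The range from 20% to under 80% held the fewest cones for its width in both libraries. Just inside the limit, from 15% to under 20%, were 19 and 10 cones with medians of 58 and 79 Opn1sw UMIs and 13 and 15 Opn1mw UMIs. Just outside, from 20% to under 25%, were 18 and 20 cones with medians of 24.5 and 41 Opn1sw UMIs and 6.5 and 12.5 Opn1mw UMIs.

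**Figure D1:**
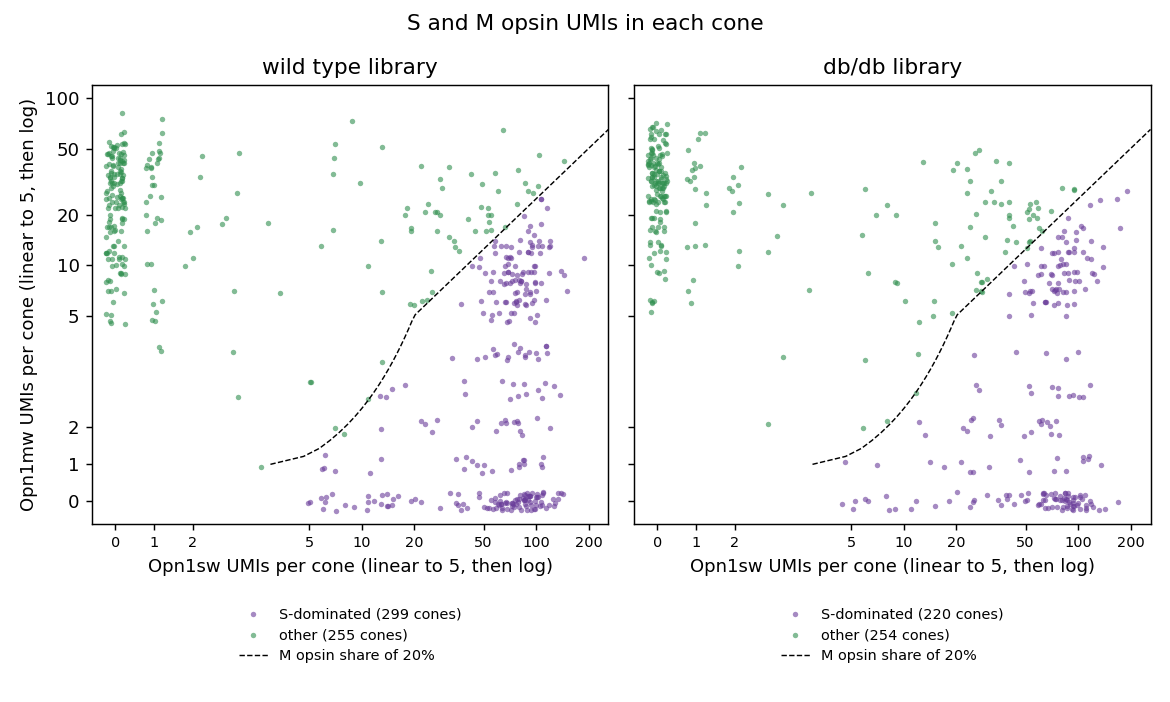
Opn1sw UMIs (x axis) against Opn1mw UMIs (y axis) in each cone, wild type at left and db/db at right, both axes linear to 5 UMIs and logarithmic above, with a small random offset to part overlapping points. Purple points are the 299 and 220 S-dominated cones, green points the 255 and 254 other cones, and the dashed line is an M opsin share of 20%; most green points lie at 0 or 1 Opn1sw UMIs and most purple points above 50.

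S-dominated cones made up 54.0% of wild-type cones (exact Clopper-Pearson 95% interval 49.7% to 58.2%) and 46.4% of db/db cones (41.9% to 51.0%). Among all kept cells they were 2.92% (2.60% to 3.27%) and 2.01% (1.75% to 2.29%), and the other cones 2.49% (2.20% to 2.81%) and 2.32% (2.04% to 2.62%). The intervals of the share of cones overlapped and those of the share of kept cells did not. These intervals cover counting error only, and 1 library a genotype leaves the genotypes untested. S-dominated cones with no Opn1mw UMI were 38.1% (32.6% to 43.9%) and 39.1% (32.6% to 45.9%) of the class. Depth was alike, with medians of 4950 and 4958.5 UMIs and 2298 and 2342.5 genes per cone, and a median of 75 and 75.5 Opn1sw UMIs.

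S-dominated cones were then compared with the other cones within each library, over genes outside the rule. The UMIs of each class in each library were added up to 4 sums. These were fitted with edgeR's quasi-likelihood test with the library as block, which leaves 1 residual degree of freedom. The median prior degrees of freedom were infinite, so the p-values rest on a spread pooled over genes (common dispersion 0.00149). They do not measure a gene's own spread between these 2 libraries, nor the variation between mice. Of 8852 genes tested 274 passed an adjusted p of 0.05 (3.1%), 132 higher (1.49%) and 142 lower (1.6%) in S-dominated cones. The direction was the same in both libraries for 273 of them, which choosing genes by the joint fit of both libraries favours. Of the called genes 40 of the higher and 36 of the lower differed at least 2-fold. DESeq2 called 48 genes on the same sums, 23 higher and 25 lower, and the fit without the block 177.

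Ccdc136, a coiled-coil protein gene, had the strongest evidence among the genes higher in S-dominated cones. It was counted at 1406 UMIs in wild-type and 1148 UMIs in db/db S-dominated cones, against 253 and 284 UMIs in the other cones. These are levels of 820 and 891 CPM against 187 and 219 CPM. Both S-dominated sums stood far above both others, by a log2 ratio of 2.07 (SE 0.088; edgeR adjusted p 3.5e-115). In GRCm38 Ccdc136 is the neighbour of Opn1sw on chromosome 6, and the genes point away from each other with 16062 bases between their RefSeq starts. Of the other neighbours within 250 kb of Opn1sw that were tested, Impdh1, Hilpda, Calu, Atp6v1f and Tnpo3 all missed the threshold. Impdh1, an enzyme of guanine nucleotide synthesis, had a log2 ratio of 0.11 (edgeR adjusted p 0.65).

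Among other genes higher in S-dominated cones were a cell adhesion gene, a homeobox gene and a calcium channel gene. Nrxn3, a presynaptic neurexin, was counted at 167 and 147 UMIs in wild-type and db/db S-dominated cones and at 17 and 12 UMIs in the other cones, a log2 ratio of 3.25 (SE 0.22; edgeR adjusted p 6.4e-44). En2, an engrailed homeobox factor, was counted at 66 and 65 UMIs against 4 and 5 UMIs, a log2 ratio of 3.66 (SE 0.36). Cacna1h, a low-voltage-activated calcium channel, was counted at 78 and 50 UMIs against 6 and 5 UMIs, a log2 ratio of 3.31 (SE 0.35). In each of these the S-dominated sums were several times both others. Epha8 (an Eph receptor), Klhl41, Wscd2, Mfng (a glycosyltransferase of Notch signalling) and A930009A15Rik had log2 ratios of 3.87, 2.82, 2.56, 2.02 and 2.19. The counts of Epha8 were 22 and 30 UMIs against 1 and 2 UMIs. Without the cells of the highest doublet scores it fell under the count minimum and was not tested. DESeq2 did not call Klhl41, Wscd2 or Mfng and gave Epha8 no adjusted p.

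3 further genes of large ratio rested on a handful of cells. Ttr, Trf and Ptgds had log2 ratios of 5.38, 3.83 and 3.77, but their UMIs in S-dominated cones came from 6 and 1 (Ttr), 2 and 2 (Trf) and 3 and 4 (Ptgds) cells of the respective library. Ttr is a marker of retinal pigment epithelium, whose other marker Rpe65 was at 14 UMIs in wild-type and 0 UMIs in db/db S-dominated cones. The part of other cell types in these ratios was not tested.

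Among genes lower in S-dominated cones the transcription factor Nr2f2 differed most. It was counted at 4 and 1 UMIs in wild-type and db/db S-dominated cones and at 53 and 60 UMIs in the other cones, a log2 ratio of -4.61 (SE 0.41; edgeR adjusted p 2e-25). Gm44532 was counted at 19 and 11 UMIs against 104 and 127 UMIs (log2 ratio -3.11). Kif4, a kinesin motor, had a ratio of -2.44, Itga6, an integrin subunit, -1.82, and Rgs7, a regulator of G protein signalling, -1.72. Gm44812, D430019H16Rik, Car8 and Dtna had ratios of -2.30, -1.86, -1.85 and -1.86. DESeq2 did not call D430019H16Rik, Car8, Itga6 or Rgs7, and gave Gm44812, Dtna and Hba-a1 no adjusted p. Trpm1 (-3.21) and Pcp2 (-2.53) are bipolar cell genes and Hba-a1 (-3.09) is a haemoglobin gene. In the other cones 3 cells held 90.8% and 94.9% of the UMIs of Trpm1 and 84.5% and 83.6% of those of Pcp2, and 3 cells held all 37 wild-type UMIs of Hba-a1. Bipolar markers summed higher in the other cones, as given above, but not every one of them did. Cabp5, a calcium-binding protein on the bipolar list, was higher in S-dominated cones, at 83 and 73 UMIs against 19 and 17 UMIs (log2 ratio 1.93, SE 0.25; edgeR adjusted p 3.04e-12). Scgn, also on that list, was counted at 12 and 9 UMIs against 3 and 0 UMIs. Cabp5 and Scgn were chosen after their values were seen. The part of bipolar RNA in these ratios was not tested.

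**Figure D2:**
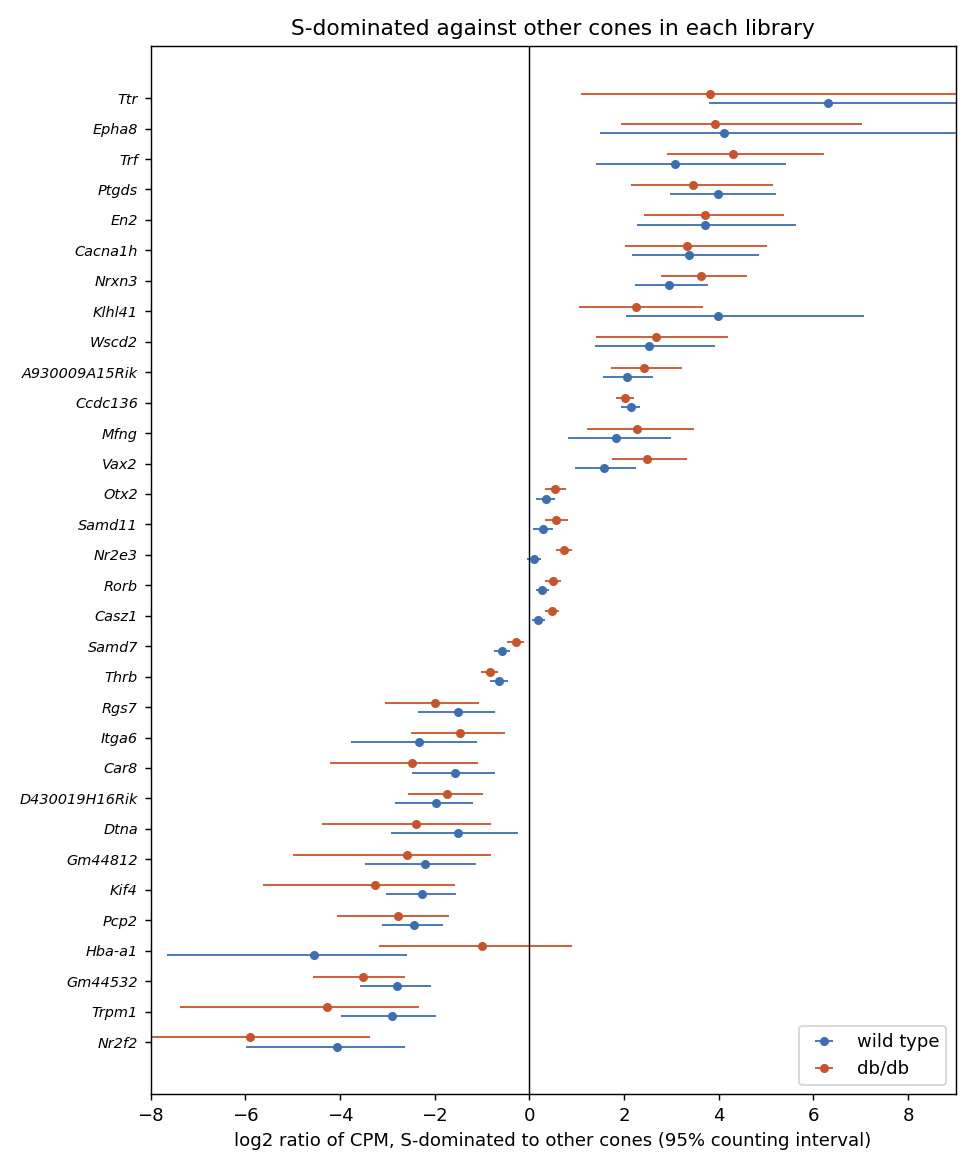
log2 ratio of CPM, S-dominated to other cones (x axis), for the 24 genes of largest difference and 8 called fate factors (y axis), with wild type in blue and db/db in orange. Bars are exact 95% intervals for counting error, clipped at the plot edge; Ccdc136 lies near 2 with narrow bars in both libraries, and Nr2f2 lies lowest.

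Of the list of photoreceptor and opsin fate factors 23 of 29 members were tested, and 6 were higher and 3 lower in S-dominated cones. Over all genes tested 1.49% were higher and 1.6% lower. DESeq2 called 3 of the 23, Vax2, Nr2f2 and Thrb. The median log2 ratio of the list was 0.08, beside 0.00 (-0.0014) over all genes tested. Vax2 stood at 59.5 and 73.7 CPM in wild-type and db/db S-dominated cones against 19.9 and 13.1 CPM in the other cones, a log2 ratio of 1.98 (SE 0.22; edgeR adjusted p 8.3e-16). Thrb stood at 251 and 303 CPM against 393 and 539 CPM, a log2 ratio of -0.75 (SE 0.088). Vax2 was thus several-fold higher, while Thrb was lower but far from absent. Rods held Vax2 at 87.4 and 110.9 CPM, above the S-dominated cones, and rod markers held a somewhat larger share of S-dominated than of other cones. The call of Vax2 was kept without the cones of the highest rod marker shares. Ccdc136 stood at 24.03 and 17.66 CPM in the same rods. Samd7, a partner of polycomb repression in photoreceptors, was also lower (-0.45). Otx2, Samd11, Nr2e3, Rorb and Casz1 were higher by log2 ratios of 0.43, 0.41, 0.40, 0.37 and 0.32. Nr2e3 is a rod factor, and DESeq2 called neither these 5 nor Samd7. Crx, Neurod1 and Sall3, needed for photoreceptor or cone genes, had ratios of 0.02, -0.01 and 0.01 and missed the threshold. Rxrg, a retinoid X receptor partner of thyroid receptors, had a ratio of 0.08 and missed it too. In the list of S and M cone genes, which overlaps the fate factors, 5 of 8 members were tested. All 5 were called, beside 3.1% over all genes tested: Ccdc136, Vax2 and Tafa3 (0.31) higher, Thrb and Nr2f2 lower. Of 18 dorsoventral patterning genes 2 were tested, Vax2 and Nr2f2. These lists were drawn up with earlier results of these data known, so they are no independent evidence of a direction.

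Arr3, a rule gene and so not tested, stood at 1585 and 1389 CPM in S-dominated cones and at 3159 and 3024 CPM in the other cones. In the list of cone phototransduction 16 of 21 members were outside the rule and tested. Of these 3 were higher and 1 lower, beside 1.49% higher and 1.6% lower over all genes tested. Guca1b and Guca1a, the activators of guanylate cyclase, were higher (log2 ratios 0.43 and 0.26), as was the exchanger gene Slc24a1 (0.32), while the exchanger gene Slc24a2 was lower (-0.49). DESeq2 called Guca1a and Guca1b of these 4. The part of rod RNA in these 4 ratios was not tested. Gnb3, the cone transducin beta subunit, was at 2608 and 2659 CPM against 2368 and 2490 CPM (0.11) and missed the threshold. In the list of rod phototransduction 11 of 16 members were higher and 0 lower, with a median of 0.28, beside 1.49% higher and 1.6% lower over all genes tested. Sag, the rod arrestin, was at 6216 and 6339 CPM against 5011 and 4519 CPM (0.39, SE 0.066). Rod markers held a larger median share of S-dominated cones, as given above, and without the cones of the highest rod marker shares 5 of the 16 were called. DESeq2 called 4 of the 16, Sag among them. The part of rod RNA in the remaining calls was not tested.

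Respiratory chain genes of the mitochondrial genome were lower in S-dominated cones for 9 of 13 members, with a median log2 ratio of -0.26. mt-Co3 stood at 8538 and 10140 CPM against 9854 and 12500 CPM. Mitochondrial genes held a median of 5.56% and 5.96% of UMIs in S-dominated cones and 6.34% and 6.85% in the others. edgeR called 0 of the 13 without the block and 2 where cells above 10% mitochondrial UMIs were left out, and DESeq2 called 6. Of 70 respiratory chain genes of the nuclear genome 1 was higher and 5 lower (median -0.12). Synapse genes showed 3 of 28 lower, among them Atp2b1, a calcium pump (log2 ratio -0.57, SE 0.072), Sv2b and Syt1. Ldhb, a lactate dehydrogenase subunit, was lower (-0.80, SE 0.14) at 71.8 and 66.8 CPM against 117 and 125 CPM, while Hk2 was the 1 higher gene of 23 in glycolysis. Of 21 outer segment and cilium genes 3 were higher (Rp1, Rpgr, Fscn2) and 2 lower (Rp1l1, Cdhr1). Among 16 hypoxia response genes Hif1a and Ndrg1 were higher, and among 9 visual cycle genes Dhrs3 was. Cry2 was lower and Rorb higher among 19 clock genes, Zfp36 lower among 16 immediate early genes and Hsp90ab1 lower among 13 heat shock genes. Over all genes tested 3.1% were called, so that a count of 0 or 1 in a list of this size is no result about the list. edgeR called 0 of 19 unfolded protein and stress response, 0 of 18 antioxidant and 0 of 8 apoptosis genes, with 1, 4 and 0 at an unadjusted p under 0.05, and DESeq2 called 0 in each. Of the genes called in this paragraph DESeq2 called Atp2b1, Atp5g1 and the 6 mitochondrial genes.

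Socs3, a feedback inhibitor of cytokine and leptin receptor signalling, was also higher in S-dominated cones. It stood at 198 and 252 CPM in the wild-type and db/db S-dominated cones and at 65.7 and 70.3 CPM in the other cones, a log2 ratio of 1.71 (SE 0.13; edgeR adjusted p 8.6e-38). Of the 20 tested genes of insulin and leptin signalling 3 were higher, Socs3, Pik3r1 (0.43) and Pik3ca (0.43), and 0 were lower. Over all genes tested 1.49% were higher and 1.6% lower. DESeq2 called Socs3 alone of the 3. Glo1, which detoxifies methylglyoxal, was at 1285 and 1526 CPM against 872 and 1137 CPM (log2 ratio 0.48, SE 0.0702), and Uap1, a hexosamine pathway enzyme of the same list of 11 genes, was lower (-0.60). DESeq2 called Glo1 but not Uap1. A few genes were chosen after their values were seen. Vax2os, an antisense gene beside Vax2 whose reads may not be told apart from it where they overlap, had a log2 ratio of 1.09 (SE 0.099). Smug1, a DNA repair glycosylase, Fzd10, a Wnt receptor, and Tshz2, a zinc finger factor, had ratios of -1.63, -1.20 and -1.02.

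Levels were next followed across the M opsin share, in 7 bins. Ccdc136 stood at 936 and 962 CPM in wild-type and db/db cones with no Opn1mw UMI, at 763 and 684 CPM from 20% to under 30%, and at 18.2 and 38.8 CPM in cones with M opsin alone. The decline lay outside the limit of the class more than within it. Vax2 was at 61.6 and 74.4 CPM with no Opn1mw UMI and at 71.9 and 63.5 CPM from 10% to under 20%, then at 7.41 and 29.2 CPM (1 and 5 UMIs) from 20% to under 30%. Nr2f2 was at 0 UMIs from 10% to under 20% in both libraries and at 61.7 and 62.8 CPM in cones with M opsin alone. Nrxn3 and Thrb behaved otherwise. Nrxn3 was at 250 and 290 CPM in cones with no Opn1mw UMI and already at 29.3 and 32.2 CPM in those above 0 and under 10%. It was at 81.5 and 23.4 CPM (11 and 4 UMIs) from 20% to under 30%. Thrb was at 106 and 167 CPM with no Opn1mw UMI and at 347 and 315 CPM in the next bin.

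**Figure D3:**
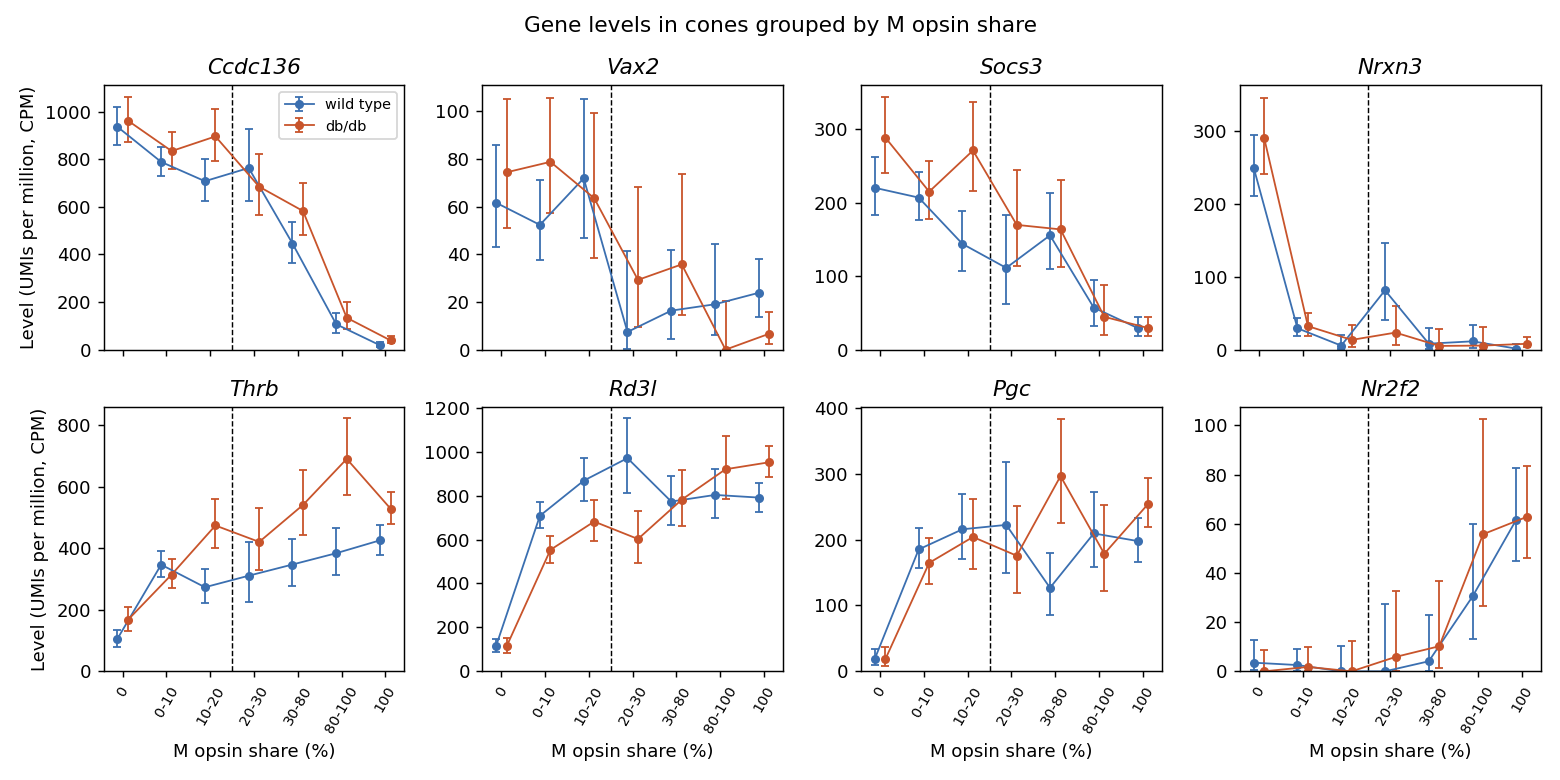
Levels in CPM (y axis) of 8 genes in cones grouped into 7 bins of M opsin share in percent (x axis), with wild type in blue and db/db in orange. Bars are exact Poisson 95% intervals, and the dashed line is the 20% limit of the S-dominated cones; Nrxn3 is highest and Thrb, Rd3l and Pgc are lowest in the leftmost bin, while Ccdc136 is lowest at the right, at 18.2 and 38.8 CPM.

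That step led to a split of the S-dominated cones, chosen after seeing the data and given as a description with no test. The 114 wild-type and 86 db/db cones without an Opn1mw UMI were set against the 185 and 134 with at least 1. Their median depths were 4387.5 and 4705 UMIs against 5160 and 5207.5 UMIs, and median Opn1sw was 70 and 74.5 UMIs against 77 and 76 UMIs. Rod markers held medians of 2.07% and 1.92% against 1.85% and 1.41%. Of 7274 genes with at least 50 UMIs, 15 were at least 2-fold higher in both libraries without M opsin (0.206%) and 56 at least 2-fold lower (0.77%). Over all these genes the median log2 ratios were 0.01 (wild type) and -0.0045 (db/db). The genes named next are the 10 highest and 10 lowest by the weaker of both libraries' interval bounds.

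Nrxn3 led the genes higher without M opsin. It was counted at 142 UMIs in 114 wild-type cones without and 25 UMIs in 185 cones with M opsin, and at 125 and 22 UMIs in the db/db library. The log2 ratios were 3.52 (95% interval 2.90 to 4.19) and 3.50 (2.84 to 4.23). At least 1 Nrxn3 UMI was present in 65 of 114 and 50 of 86 (58.1%) cones without M opsin, in 8.65% and 7.46% of those with it, and in 3.74% and 1.97% of rods. Ralyl, an RNA-binding protein gene, was at 144 and 132 CPM without and 53.2 and 55.9 CPM with M opsin. Lhx4, a LIM homeobox factor, was at 114 and 95.3 CPM against 38.4 and 43.1 CPM, and at 92.2 and 93.5 CPM in the other cones. Lhx4 was thus lowest in the S-dominated cones that had M opsin. Abhd14b, Abi3, Riiad1, Cdr1os and Cabp5 (the bipolar list gene named above) had log2 ratios from 1.01 to 1.97, and Glo1 and Cuedc1 from 0.49 to 0.67.

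By the weaker of both libraries' interval bounds, Pgc and Rd3l lay lowest among genes lower without M opsin. Pgc, the precursor of the protease gastricsin, was counted at 11 and 8 UMIs without and at 223 and 153 UMIs with M opsin, wild type given first. Those are 19.4 and 18.6 CPM against 195 and 178 CPM, with 190 and 240 CPM in the other cones. Rd3l was at 116 and 114 CPM without, 759 and 598 CPM with, and 808 and 875 CPM in the other cones. The log2 ratios were -3.33 and -3.26 for Pgc and -2.71 and -2.39 for Rd3l. Nptx1, a neuronal pentraxin, had ratios of -2.54 and -2.86, Lynx1, a modulator of nicotinic receptors, -3.50 and -3.84, and Tshz2 -2.93 and -2.52. Lrtm1, Stn1, Chst2 and Gm42697 had ratios from -1.98 to -3.21. Agr2, an endoplasmic reticulum protein, was at 0 and 3 UMIs without and 42 and 61 UMIs with M opsin.

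Known opsin regulators divided in this split. Thrb was found in 32.5% and 48.8% of cones without M opsin, 74.1% and 78.4% of those with it, and 75.3% and 81.5% of the other cones. The share in rods was 28.8% and 28.6%, and the Thrb level without M opsin, 106 and 167 CPM, lay near that of rods, 141 and 151 CPM. Vax2 was at 61.6 and 74.4 CPM without and 58.5 and 73.4 CPM with M opsin. Socs3 and Ccdc136 were likewise present on both sides, Ccdc136 in 87.7% and 88.4% of cones without and 94.6% and 91.8% of cones with M opsin. En2 was at 17.6 and 41.8 CPM without (10 and 18 UMIs) and 48.9 and 54.8 CPM with M opsin. Its 95% counting intervals without M opsin, 8.44 to 32.4 and 24.8 to 66.1 CPM, overlapped between the libraries. The difference between the libraries was not tested. Limiting both sides to cones with at least 50 opsin UMIs left Nrxn3 in 74.7% and 71.0% of the 79 and 62 cones without M opsin and in 9.43% and 7.27% of the 159 and 110 with it.

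**Figure D4:**
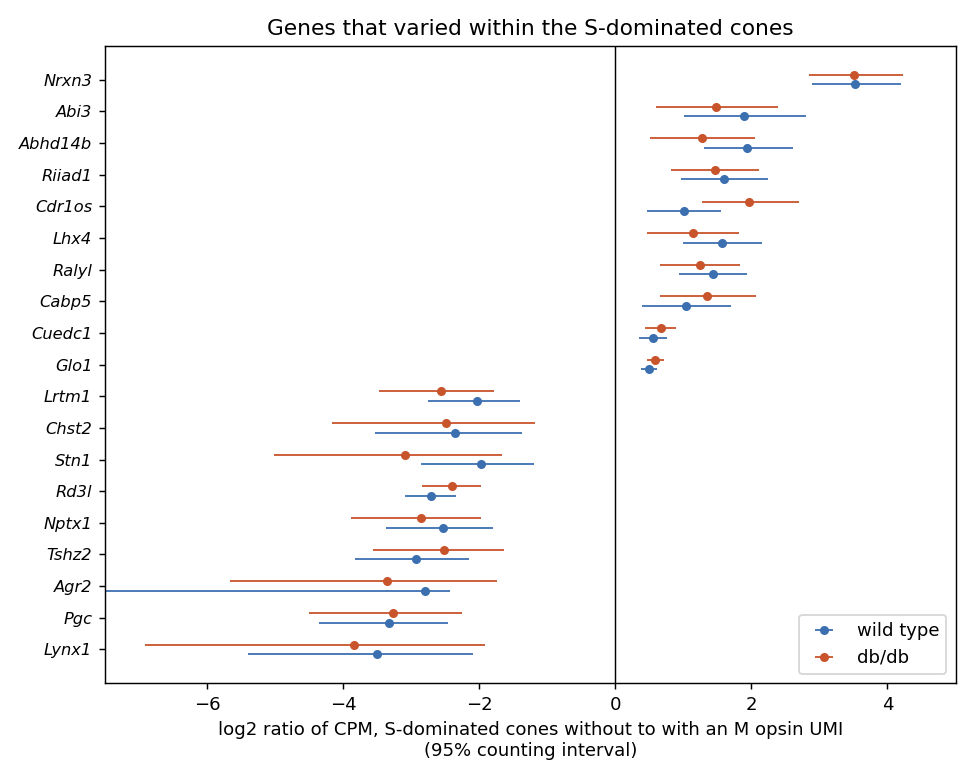
log2 ratio of CPM (x axis), S-dominated cones without to S-dominated cones with an Opn1mw UMI, for 19 of the 20 named genes (y axis) with wild type in blue and db/db in orange. Bars are exact 95% intervals for counting error. Every gene lies on the same side of 0 in both libraries, which follows from choosing genes by the weaker of both libraries' interval bounds. Nrxn3 lies at 3.52 and 3.50. The wild-type point of Agr2, with 0 UMIs, is drawn at the floor of 3 UMIs with an interval that runs off the axis.

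The db/db and wild-type libraries were compared within the S-dominated cones as log2 ratios of CPM, with no test. Of 7281 genes with at least 50 UMIs over both libraries 38 were past a 2-fold ratio (0.522%), 19 higher (0.261%) and 19 lower (0.261%) in db/db, and 36 of the 38 had under 200 UMIs. Ratios above 0 were found for 3872 genes (53.2%), with a median of 0.02. Opn1sw and Opn1mw had ratios of -0.01 (-0.04 to 0.01) and 0.04 (-0.08 to 0.17). Both, like Arr3, Pde6h and Gngt2 below, belong to the rule that chose the cells, so their levels are partly set by it. Of the 20 cone phototransduction genes measured, rule genes among them, 5 had ratios above 0 and 15 below, and 0 were past 2-fold. Arr3 was at 1585 and 1389 CPM (-0.19) and Pde6h at 4782 and 4150 CPM (-0.20) in wild type and db/db, while in the other cones their ratios were -0.06 and -0.03. Gngt2, the cone transducin gamma subunit, was at 3516 and 3883 CPM (0.14).

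Selenbp1, a selenium-binding protein, was the highest named gene, at 11 UMIs in the wild-type and 52 UMIs in the db/db S-dominated cones. Its ratio was 2.65 (1.70 to 3.74), and 2.58 (1.60 to 3.71) in the other cones. AC149090.1 had 84 and 158 UMIs (1.32, interval 0.93 to 1.72) and a ratio of 1.45 in the other cones. Tmsb15b1, a thymosin gene, had 34 and 62 UMIs (1.28) and a ratio of 1.15 in the other cones. Agr2 had 42 and 64 UMIs (1.02) and 1.45 in the other cones. These 4 genes had like ratios in both classes of cone. Zfp983 had 13 and 40 UMIs, a ratio of 2.03 (1.10 to 3.06) against 0.36 (-0.42 to 1.15) in the other cones, and the difference between the classes was not tested. Adar, the RNA-editing deaminase, Meak7, Pou6f1 and Kansl3 had ratios of 1.45, 1.31, 1.25 and 0.85, and 0.34, 0.30, 0.67 and 0.15 in the other cones.

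Fos, an immediate early transcription factor, was the most strongly counted gene on the lower side. It had 1225 UMIs in wild-type and 514 UMIs in db/db S-dominated cones, 715 and 399 CPM. The ratio was -0.84 (-0.99 to -0.69), and -0.69 (-0.84 to -0.54) in the other cones. Fosb had ratios of -0.87 and -1.53 in the 2 classes, while Junb had -0.28 and 0.08. Over the 13 immediate early genes measured 6 ratios were above 0 and 7 below. Sgf29, Acsl5 (an acyl-CoA synthetase) and Atg4c (an autophagy protease) had ratios of -1.40, -1.38 and -1.09, and -0.97, -1.38 and -0.82 in the other cones. Mecr, an enzyme of mitochondrial fatty acid synthesis, had 50 and 16 UMIs (-1.23) and a ratio of 0.36 in the other cones. Mpp7 and Arid5b had ratios of -0.86 and -0.80. Ttr (-2.42), Ptgds (-1.12) and Trf (1.72) again rested on the few cells given above.

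**Figure D5:**
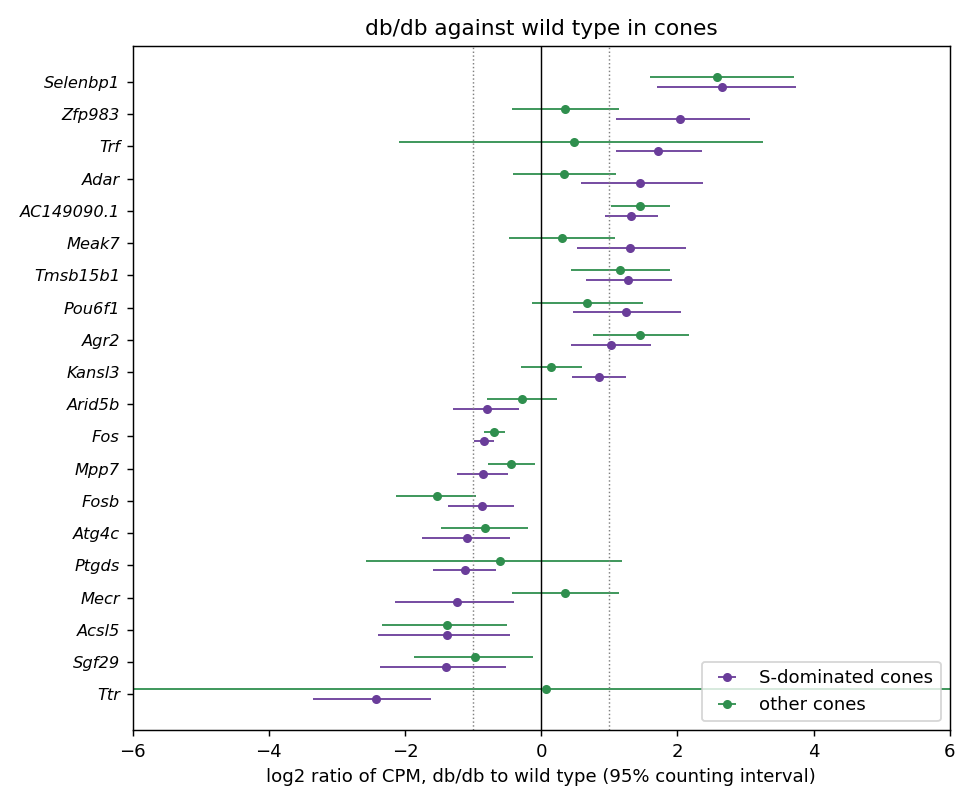
log2 ratio of CPM, db/db to wild type (x axis), for the 20 genes named by the interval bound nearest 0 (y axis), in S-dominated cones (purple) and the other cones (green). Bars are exact 95% intervals for counting error, clipped at the plot edge, and dotted lines mark 2-fold; Selenbp1 lies near 2.6 in both classes and Fos below 0 in both.

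Gene lists had medians near 0 between the genotypes, with no replicate check. Their counts of ratios above 0 stand beside 53.2% over all measured genes. Of 22 fate factors measured 19 had ratios above 0, with a median of 0.22 beside 0.02 over all genes and 0.07 for the same genes in the other cones. Casz1 was at 603 and 757 CPM (0.33, interval 0.20 to 0.46), Thrb at 251 and 303 CPM (0.27, 0.07 to 0.47) and Rxrg at 58.3 and 83.8 CPM (0.52, 0.12 to 0.93). The median was 0.12 without the cones of the highest rod marker shares. Glycolysis genes were above 0 for 18 of 23 with a median of 0.12, and 0.14 in the other cones. Gpi1, the glucose phosphate isomerase, was at 361 and 480 CPM (0.41, 0.25 to 0.57). Mitochondrially encoded respiratory genes were above 0 for 9 of 13 (median 0.13, and 0.21 in the other cones). Clock genes were above 0 for 13 of 17 (0.16), and insulin and leptin signalling genes for 16 of 19 (0.09), with Stat3 at 81.1 and 109 CPM (0.43, 0.08 to 0.78). Antioxidant genes were below 0 for 10 of 13 (-0.12, and 0.07 in the other cones), and 1 was past 2-fold, the metallothionein Mt1 at 70 and 22 UMIs (-1.26), with -2.35 in the other cones. Nuclear respiratory chain genes were above 0 for 25 of 70 (-0.03), rod phototransduction genes for 6 of 16 (-0.07), and polyol, hexosamine and glyoxalase genes for 5 of 9 (0.06). Medians of the lists of cone synapse, outer segment and cilium, visual cycle, hypoxia response, heat shock, apoptosis and unfolded protein response genes lay between -0.10 and 0.03.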

How the data were processed

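UMI counts per gene and cell, from 10x Genomics 3' v3.1 libraries, were deposited by the authors as made by Cell Ranger on mm10, per the submitters' processing notes; the version, 6.0.1, is per the file headers. Other settings, strand use in counting included, are not given in the sources used here. Cells with at least 200 genes and at most 20% mitochondrial UMIs were kept, 10230 of 10308 and 10963 of 11083 barcodes. Cones and S-dominated cones were then chosen by the rule given at the start of the results. Scrublet (scanpy 1.11.5) marked 0 and 2 cells (0% and 0.0182%), too few to have worked, so doublets were left in; as an alternative, cells in the top 8% of scores were removed.

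UMIs were summed per library and class. S-dominated and other cones were compared with edgeR 4.0.16 (R 4.3.3; TMM, quasi-likelihood test, Benjamini-Hochberg adjustment, at least 50 UMIs over the 4 sums), with the 7 rule genes left out. The SE beside an edgeR ratio is the absolute ratio over the square root of the test's F statistic, so it restates that test. DESeq2 1.42.0 was an alternative. Genotypes, with 1 library each, were compared with no test, as log2 ratios of counts per 1000000 UMIs with exact conditional binomial 95% intervals; these, the exact Poisson intervals of levels and the Clopper-Pearson intervals of shares (scipy 1.17.1) cover counting error only. The scripts were tested on simulated data.

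Named genes were up to 12 higher and 12 lower in S-dominated cones with the largest ratio among those called and of 1 direction in both libraries. For db/db they were the 10 highest and 10 lowest by the interval bound nearest 0, without mitochondrial, ribosomal, haemoglobin and sex-linked genes, gene models, rod markers and genes under 0.5 times their level over all kept cells. List members were named as well. The members and lists were chosen with earlier results of these data known. Neighbours of the opsins were taken from annotation positions (GENCODE M21, GRCm38) in place of a hand-written list. Alternatives changed the M opsin limit, opsin, gene and count minimums, mitochondrial limit, normalization, tool, block, denominator, thinning, cell weights and doublets, and left out cones of high rod marker share. Those that left out cones of high shares of other classes' markers, used a robust spread, and the whole split by an Opn1mw UMI, were chosen after seeing the data.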

Additional observations from a re-analysis of the deposited data

Results flagged for a closer look

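Nr2e3 and Nrl, both rod transcription factors, had log2 ratios of db/db to wild type of 0.38 and 0.30 in S-dominated cones and of -0.26 and -0.31 in the other cones, so the classes lay on opposite sides of 0. Without the cones of the highest rod marker shares the ratios in S-dominated cones were 0.18 and 0.06. Hspa1a, a heat shock chaperone gene, had ratios of 0.52 and -0.49 in the same classes. The difference between the classes was not tested for any of these 3 genes.

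Zfp36l1, an RNA-binding protein gene, had a log2 ratio of S-dominated to other cones of -3.41 (wild type) and 0.0066 (db/db). It was counted at 7 and 59 UMIs in the wild-type and at 2 and 2 UMIs in the db/db classes, and 3 cells held 93.2% of the 59 UMIs. The difference between the libraries was not tested.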

How the results depend on the processing

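Between S-dominated and other cones, DESeq2 called 48 genes (23 higher, 25 lower) in place of 274. With no replicate block 177 were called, 79 higher and 98 lower; the block here is the library. The log2 ratio of Trf turned to -0.70 (edgeR adjusted p 0.30) with an M opsin limit of 10%. For genes named in that comparison 1109 values counted as unchanged, 100 lost the call, 14 gained it and 1, that of Trf, reversed. The 1109 include ratios of each library alone, which have no adjusted p and were judged on direction at most. Of the 24 genes of largest difference DESeq2 called 13, lost 7 and gave 4 no adjusted p. Where cells were left out, up to 7 of the 24 fell under the 50 UMI minimum and were not tested.

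Of genes past 2-fold between genotypes, those higher in db/db numbered 11 without the cones of the highest rod marker shares, 9 with cells thinned to 1000 UMIs, 55 with equal weight per cell and 1 at a minimum of 200 UMIs. Those lower numbered 7, 67 and 1 under the last 3. Ptgds turned to 0.39 without the cones of the highest other-class marker shares, and Trf to -4.55 with the M opsin limit of 10%. With that limit S-dominated cones were 42.6% and 35.7% of cones and 2.31% and 1.54% of kept cells. They were 10.5% and 8.81% of kept cells that are not rods, and 2.59% of wild-type kept cells without the cones of the highest rod marker shares. The causes were not tested.

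In the split by an Opn1mw UMI 119 values of named genes moved by less than their interval and 1 moved further, Rd3l in the wild type at -3.28 without the cones of the highest rod marker shares. With 1 library per genotype, genes with few UMIs are limited by depth, and counting intervals do not cover the variation between mice.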
